A study of Mus musculus with 16 samples.

Results

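Intermediate filament genes were followed through mouse hamstring muscle after spinal cord injury (SCI), cardiotoxin (CDTX) injection, or both. The members were the 14 array probes whose symbol in the deposited table was Krt18, Krt8, Des, Dmn, Vim, Nes or Lmna, out of 25697 probes. All 14 probes, for 7 genes, were among the 14763 kept because their detection p was under 0.05 on at least 3 arrays. The set was chosen by measured values of these same arrays, a higher Krt18 level with cord injury and a lower Dmn level. The SCI comparisons and the CDTX comparison within SCI mice are therefore given as descriptions with no test, and no p-value is given for Krt18 or Dmn. Counts of probes past the threshold that include these genes or comparisons are descriptions too. Dmn is the table's older name for synemin, now Synm.

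The study measured RNA of whole muscle from female mice, on 16 Illumina arrays, at 2 days after surgery. The 4 groups of 4 arrays were SCI+CDTX (cord lesion at vertebrae T12-13 with CDTX injected into the muscle), SCI+Saline (the same lesion with saline), Sham+CDTX (sham surgery with CDTX) and Sham+Saline (sham surgery with saline). CDTX is a cobra venom protein used to kill muscle fibres. Per the series design, bone forms in the muscle after SCI+CDTX and in no other group. Strain and age are not given in the sources used here. No label says that the arrays of a group came from separate animals, so the p-values measure the spread between these arrays. The authors dropped SCI+CDTX 2 from their last analysis, per the labels, and it is left out here unless named. All SCI arrays were on 1 slide and all sham arrays on the other, so an effect of SCI and an effect of the slide cannot be told apart. The CDTX comparisons lie within a slide, and the difference between the CDTX effects uses both slides. On both slides the array labels carry the letters A to D for CDTX and E to H for saline. If the letters mark the place on the slide, an effect of CDTX and an effect of place cannot be told apart.

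Intermediate filaments are rope-like polymers that give cells mechanical strength. In muscle fibres desmin and synemin tie Z-discs to each other and to the membrane. Keratins 8 and 18 form an obligate pair best known from simple epithelia, vimentin belongs to fibroblasts, leukocytes and other mesenchymal cells, nestin to progenitors and regenerating fibres, and lamins A and C line the inside of the nuclear envelope.

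The Krt18 and Krt8 results each rest on 1 probe of 50 bases, shown here 5′ to 3′ because these strings are what the arrays measured.
Krt18 (ILMN_2711267): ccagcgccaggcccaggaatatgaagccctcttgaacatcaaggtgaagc
Krt8 (ILMN_1221157): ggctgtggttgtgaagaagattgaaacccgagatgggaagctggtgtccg
Both genes lie in band 15qF3 of chromosome 15, as the table lists them. The table names no genome build, so its probe positions are not printed.

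Synemin has 3 probes. The first 30 bases are shown of the pair with clear signal, which start at bases 1713 and 4339 of the record for transcript variant 3 and gave different answers in the results. The third probe, ILMN_3053693 for transcript variant 1, sat near background.
Dmn (ILMN_1214880): cgcgtggggacagtttatacgagttttgca
Dmn (ILMN_2636266): ctggggctggagctggtcaagtagttactc

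Lamin A/C has 5 probes. The end of 1 probe can be the start of the next. ILMN_3121891 and ILMN_1254405 share 8 bases, and ILMN_1254405 and ILMN_2597710 share 23, so these 3 probes read neighbouring and partly identical sequence and are not independent. ILMN_1255510, of which 30 bases are shown because its answer differed from that of the other 4 probes, lies farthest toward the 3′ end by the positions in the table.
Lmna (ILMN_1255510): ctgccagcctagggcagctctcccacctcc

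Mean raw intensity per array ran from 230.5 to 373 and was lowest in Sham+Saline (230.5 to 277). Detected probes per array numbered 11114 to 13694. Across the 2779 genes with several probes, members left out, a score of differences between probes of the same gene separated the Sham+CDTX arrays (3.47 to 3.90) and the excluded SCI+CDTX 2 (2.80) from the other 11 arrays (-2.67 to -0.65). Comparisons that involve Sham+CDTX move with this score, and its part in the results was not tested beyond the fits that carry it as a covariate. Within groups the score varied most through SCI+CDTX 2, at 2.80 against -1.17 to -0.65 on the other arrays of its group. With-score values of comparisons that involve Sham+CDTX therefore rest largely on that array and are extrapolations. Levels are log2 normalized intensities, and levels of different probes are not compared.

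Keratin 18 was not above background in Sham+Saline muscle, was near background in Sham+CDTX and was bright after SCI. In SCI+Saline its level was 9.58, 9.40, 9.86 and 8.97 in arrays 1 to 4. In SCI+CDTX it was 8.21, 7.39 and 7.02 in arrays 1, 3 and 4. The Sham+CDTX arrays read 4.95, 4.54, 4.45 and 4.67, detected on 3 of 4, and the Sham+Saline arrays read 4.40, 4.31, 4.27 and 4.24, detected on 0 of 4. The order was SCI+Saline, SCI+CDTX, Sham+CDTX, Sham+Saline, and no group overlapped its neighbour.

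Between SCI+Saline (9.45 ± 0.37, SD, n = 4) and Sham+Saline (4.31 ± 0.07, n = 4), Krt18 was at least 25.4-fold higher, counted against a floor for each Sham+Saline array, its lowest detected signal or the Krt18 signal if higher. Between SCI+CDTX (7.54 ± 0.61, n = 3) and Sham+CDTX (4.65 ± 0.22, n = 4) the log2 difference was 2.89 (standard error 0.23), or 7.40-fold. Within SCI mice the difference of CDTX muscle from saline muscle was -1.91 (standard error 0.23). No fold is given between the sham groups, where the probe was at or near background. SCI+CDTX 2, the excluded array, had a raw intensity of 500.7, against 464.3, 289.7 and 239 on the other SCI+CDTX arrays and 617.9 to 1141.7 in SCI+Saline. In whole muscle, more cells that hold an RNA and more RNA per cell cannot be told apart.

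Keratin 8, the partner of keratin 18, followed the same order of group means. SCI+Saline arrays read 8.54, 7.88, 8.79 and 8.16. SCI+CDTX arrays read 6.97, 6.70 and 6.61. Sham+CDTX arrays read 5.74, 5.40, 5.26 and 5.98, and Sham+Saline arrays 5.34, 4.30, 5.60 and 4.51, detected on 2 of 4. The groups were separate from each other except that the sham groups overlapped.

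The Krt8 level in SCI+Saline (8.34 ± 0.40, SD, n = 4) was above Sham+Saline (4.94 ± 0.63, n = 4) by 3.40 (standard error 0.26), with the probe detected on 2 of the 4 Sham+Saline arrays. In SCI+CDTX (6.76 ± 0.18, n = 3) it was above Sham+CDTX (5.60 ± 0.33, n = 4) by 1.16 (standard error 0.28). Within SCI mice the difference with CDTX was -1.58 (standard error 0.28), and within sham mice it was 0.66 (standard error 0.26, limma adjusted p = 0.0421). That sham difference was called in the fit as reported and was not called under 11 of 25 alternatives. The call was lost without SCI+CDTX 3 (0.65), SCI+CDTX 4 (0.65), Sham+CDTX 1 (0.60), Sham+CDTX 4 (0.52), Sham+Saline 2 (0.46) and Sham+Saline 4 (0.52), each left out alone. The fit with the probe difference score put it at -0.25 (standard error 0.70).

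The 2 CDTX effects on Krt8 differed from each other. The effect in SCI minus the effect in sham was -2.24 (standard error 0.38, 95% interval -3.04 to -1.44). It equals the SCI effect in CDTX muscle minus that in saline muscle. Those comparisons chose the set through Krt18, the partner of Krt8, so the value is a description with no p-value. With the probe difference score over 16 arrays this value was -1.36 and not past the threshold. In the 15-array fit it was past the threshold, also with each array left out in turn. Across the 15 arrays Krt18 and Krt8 correlated at r = 0.96, and after group means were removed at r = 0.44. These are descriptions, since both probes share the same arrays and groups.

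**Figure D1:**
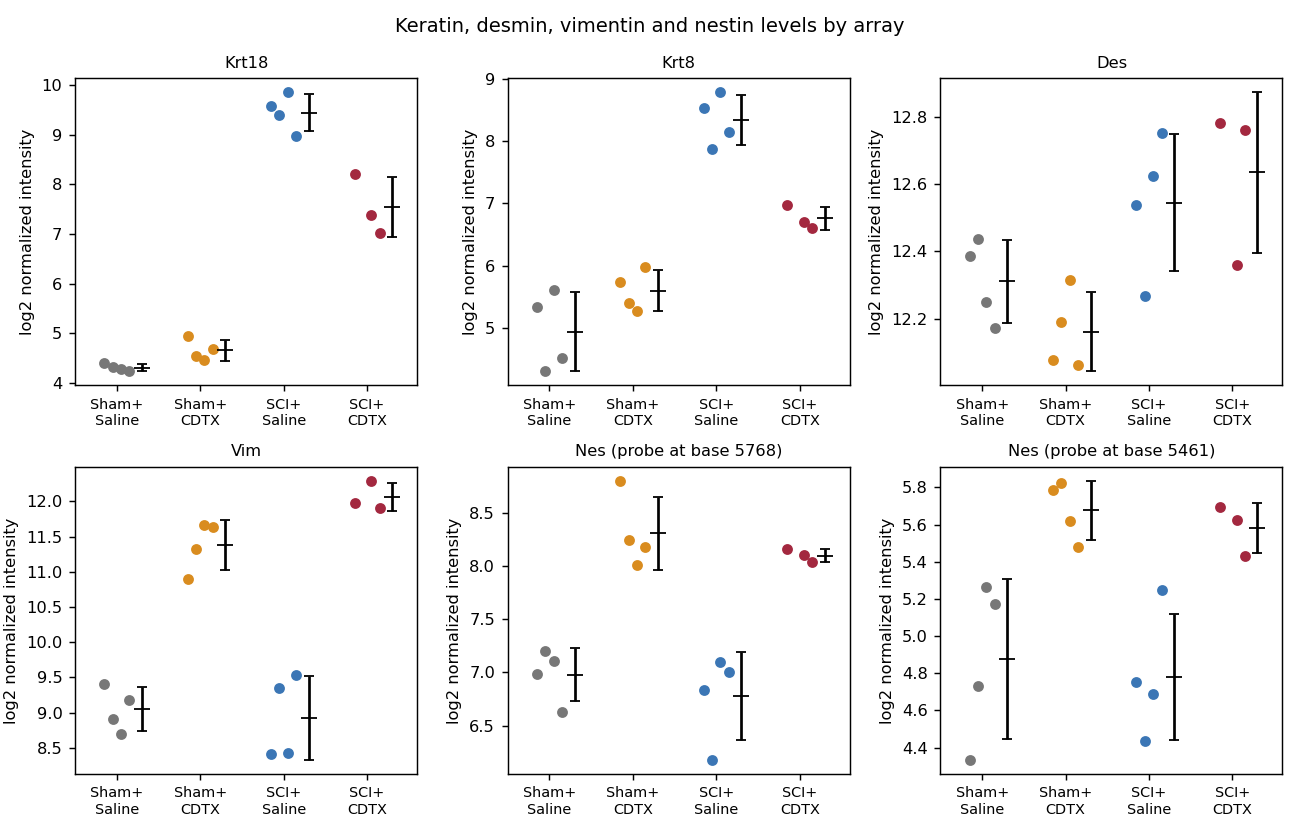
Log2 normalized intensity of 6 probes by group, each panel on its own vertical scale, with 1 point per array and a bar for the group mean ± SD (n = 3 in SCI+CDTX, n = 4 elsewhere). Krt18 and Krt8 were high in both SCI groups and highest in SCI+Saline, Vim and Nes were high in both CDTX groups, and Des stayed within 12.06 to 12.78 on all 15 arrays.

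Krt8 and Krt18 are adjacent protein-coding genes in the mouse genome, and the 250 bases before each start are printed because this pair moved together. Sequences are RefSeq's, build GRCm38.p6, written 5′ to 3′ on the strand of the gene. Krt8 lies on the minus strand, chr15:102004343-102004592, and Krt18 on the plus strand, chr15:102027966-102028215.
Krt8: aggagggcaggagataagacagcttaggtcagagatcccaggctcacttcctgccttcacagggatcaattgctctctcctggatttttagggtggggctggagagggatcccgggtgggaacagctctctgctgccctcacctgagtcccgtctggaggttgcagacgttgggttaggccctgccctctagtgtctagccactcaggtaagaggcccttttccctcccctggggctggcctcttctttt
Krt18: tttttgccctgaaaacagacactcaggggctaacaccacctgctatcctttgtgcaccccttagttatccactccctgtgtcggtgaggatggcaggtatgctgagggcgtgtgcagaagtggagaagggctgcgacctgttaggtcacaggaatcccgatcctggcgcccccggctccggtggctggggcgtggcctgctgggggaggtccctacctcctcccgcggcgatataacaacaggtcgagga
Both strands were searched for 3 short motifs that do not overlap one another, and 0 matches were found in either window, so no base is in capitals. The TATA box core TATAAA was present in 12.4% of 32851 windows of 250 bases. The GC box core, whose letters are GGGCGG, was present in 32.7% of them. The AP-1 motif, spelled TGANTCA, was present in 6.75%.

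No other keratin was called higher beside this pair. Of 19 other keratin genes listed, 18 were on the array and 3 were kept (Krt7, Krt10 and Krt222), and 0 were called higher in any of the 4 comparisons. Krt10, a keratin of upper epidermis, fell by 0.54 with CDTX in sham mice (limma adjusted p = 0.0467) and was at -1.14 with CDTX in SCI mice. Of the 3 kept keratins, 1 was called lower with CDTX in each surgery, where 25.8% (sham) and 22.5% (SCI) of all kept probes were. With SCI 1 was called lower in saline muscle and 2 in CDTX muscle, against 14.6% and 14.9% of all. Epithelial and mesothelial markers had summed intensities that overlapped between every pair of groups. Of 11 listed, 5 were kept (Cdh1, Cldn4, Cldn7, Krt7 and Msln), with a summed intensity of 125 to 149.7 in SCI+CDTX, 132.4 to 145 in SCI+Saline, 109 to 133 in Sham+CDTX and 130.8 to 151 in Sham+Saline. Of the kept markers, Cldn4 was detected on 3 of 15 arrays, Msln on 5, Krt7 on 7, Cldn7 on 13 and Cdh1 on 14. The sums thus lie near background, and their overlap cannot show whether epithelial cells differed between groups. Krt5 and Esrp1 were detected on 0 of 15 arrays, Krt19 on 1 and Krt14 on 2. Between SCI+CDTX and Sham+CDTX 1 of the 5 kept markers was called higher, and between SCI+Saline and Sham+Saline 0 were.

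Of the markers of muscle precursors and regenerating fibres, 3 were called higher and 1 lower in SCI+Saline than in Sham+Saline. Of 8 listed, 4 were kept (Myod1, Myog, Myh8 and Ncam1), and their summed intensity was 1288 to 1709 in SCI+Saline, 948 to 1178 in SCI+CDTX, 578 to 876 in Sham+CDTX and 398 to 591 in Sham+Saline. Pax7 and Myf5 were detected on 0 of 15 arrays. The group ranges of the sum fall in the same order as the keratin means. Among the 4 genes only Myog had group means in that order, at 9.74, 8.74, 7.52 and 6.41. Myod1 and Ncam1 were also highest in SCI+Saline. Myh8 went the other way, lowest in SCI+Saline and highest in Sham+Saline, with a log2 difference of -1.20 between them. The part of these markers in the keratin result was not tested.

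Desmin, the main intermediate filament of the muscle fibre, differed little. It read 12.39, 12.44, 12.25 and 12.17 in Sham+Saline and 12.08, 12.19, 12.32 and 12.06 in Sham+CDTX. In SCI+Saline it read 12.54, 12.27, 12.62 and 12.75, and in SCI+CDTX 12.78, 12.36 and 12.76. The order of means was SCI+CDTX, SCI+Saline, Sham+Saline, Sham+CDTX, and each group overlapped its neighbour in that order. The SCI+CDTX arrays were all above the Sham+CDTX arrays, the lowest at 12.36 against the highest at 12.32.

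The CDTX effect on Des in sham mice was -0.15 (standard error 0.14, 95% interval -0.45 to 0.15, limma adjusted p = 0.409). Its difference from the effect in SCI mice was 0.24 (95% interval -0.20 to 0.68, adjusted p = 0.453). After median scaling these values were 0.05 and -0.32, and with the probe difference score 0.27 and -0.11, so the sign of either depends on the setting. SCI muscle was above sham muscle by 0.23 with saline and 0.47 with CDTX. The saline value, not past the threshold as reported, was past it at 0.67 under median scaling and at 0.46 with slides normalized separately. The CDTX value was past the threshold as reported and not under 7 of 25 alternatives. Summed markers of the muscle fibre, 10 of 10 genes kept, ran from 114964 to 129353 in SCI+CDTX, 124728 to 140281 in SCI+Saline, 123746 to 137211 in Sham+CDTX and 139934 to 149297 in Sham+Saline.

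Synemin binds desmin and links it to the membrane. By both probes with clear signal its mean was lower in each SCI group than in the sham group of the same injection. How firmly each difference passed the threshold depended on the setting. By ILMN_2636266 it read 10.52, 10.56, 10.49 and 10.16 in Sham+Saline and 9.27, 9.17, 8.99 and 9.19 in Sham+CDTX. It read 9.61, 8.73, 9.65 and 9.74 in SCI+Saline and 8.98, 8.04 and 8.56 in SCI+CDTX. The Sham+Saline arrays were above every other array. SCI+Saline and Sham+CDTX overlapped, as did SCI+Saline and SCI+CDTX, in both cases through SCI+Saline 2. The highest SCI+CDTX value, 8.98, lay just under the lowest Sham+CDTX value, 8.99.

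By this probe the log2 difference of SCI+Saline from Sham+Saline was -0.998 (standard error 0.21) and that of SCI+CDTX from Sham+CDTX -0.63 (0.23). Both were past the threshold as reported. The first was not under 1 of 25 alternatives, median scaling, at -0.57, and the second was not under 15 of 25. With CDTX the difference was -0.91 (0.23) in SCI mice and -1.28 (0.21) in sham mice. The CDTX effect in SCI minus that in sham was 0.37 (0.31), and -0.061 under median scaling.

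By ILMN_1214880 the picture differed. Sham+Saline read 10.43, 10.36, 11.21 and 9.77, Sham+CDTX 9.14, 10.27, 10.41 and 10.01, and SCI+Saline 10.19, 9.24, 9.33 and 9.14. SCI+CDTX stood alone at 7.63, 6.47 and 7.17, below every other array. Its mean of 7.09 ± 0.59 (SD, n = 3) differed from SCI+Saline (9.47 ± 0.48, n = 4) by -2.39 (standard error 0.35) and from Sham+CDTX (9.96 ± 0.57, n = 4) by -2.87 (0.35). From Sham+Saline (10.45 ± 0.59, n = 4), SCI+Saline differed by -0.97 (0.32) and Sham+CDTX by -0.49 (0.32), with overlap in both cases. The SCI+Saline value was past the threshold as reported and not under 9 of 25 alternatives, among them median scaling, at -0.50. The CDTX effect in SCI minus that in sham was -1.90 (0.47).

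The excluded array did not share the low ILMN_1214880 level of its group. Its raw intensity was 926.4, against 344.1, 195.6 and 256 on the other SCI+CDTX arrays and 674.9 to 1350 in SCI+Saline. By ILMN_2636266 the excluded array, at 646.5, lay inside the range of its group, 400.4 to 707. With the probe difference score over 16 arrays, the ILMN_1214880 difference between SCI+CDTX and Sham+CDTX was -0.48 (standard error 0.58). That between the sham groups was -3.43 (0.83) and that within SCI mice was -2.68 (0.40). Within SCI mice the value was thus close to that without the score, -2.39, while those that involve Sham+CDTX moved far more.

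ILMN_3053693, the probe for variant 1, read 4.27 to 5.18 on the 15 arrays and was detected on 3 of 3 SCI+CDTX, 0 of 4 SCI+Saline, 3 of 4 Sham+CDTX and 1 of 4 Sham+Saline arrays. No fold is given for it.

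**Figure D2:**
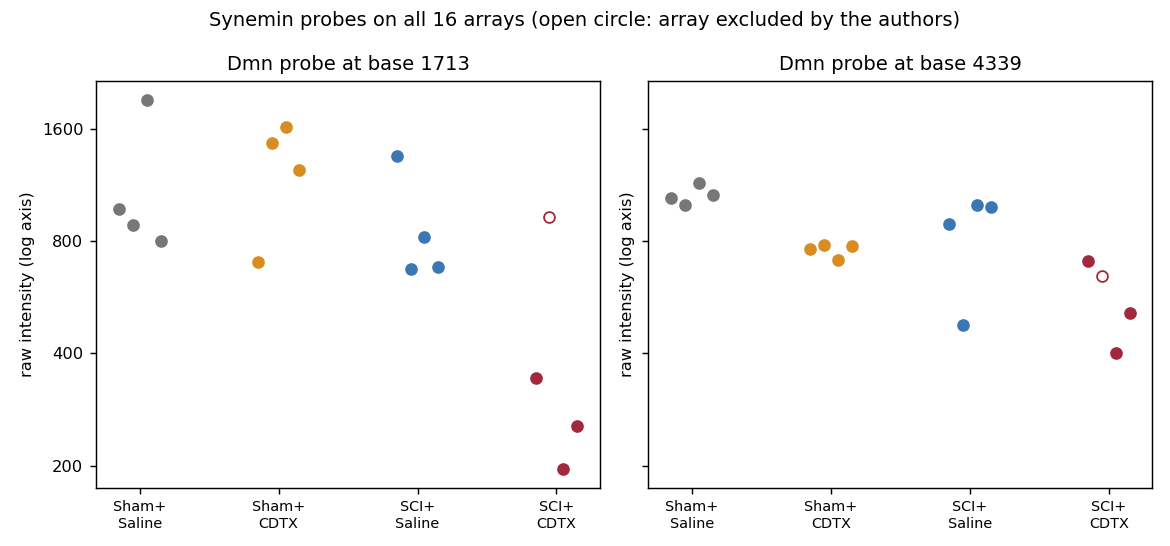
Raw intensity on a log axis of 2 Dmn probes on all 16 arrays, by group, 1 point per array. By the probe at base 1713 the 3 filled SCI+CDTX points, 195.6 to 344.1, lie below all others while the open circle, the excluded array, is at 926.4; by the probe at base 4339 the open circle lies among its group.

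Vimentin was high in both CDTX groups. It read 10.90, 11.33, 11.66 and 11.64 in Sham+CDTX against 9.41, 8.91, 8.70 and 9.18 in Sham+Saline, a rise of 2.33 (standard error 0.25, limma adjusted p = 4.02e-07), or 5.04-fold. In SCI mice it read 11.98, 12.29 and 11.91 with CDTX and 8.41, 9.35, 8.42 and 9.54 with saline, a difference of 3.13 (standard error 0.27). The CDTX groups did not overlap the saline groups within either surgery.

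The 2 CDTX effects on Vim differed by 0.80 (95% interval 0.04 to 1.56, limma adjusted p = 0.122), which was not called. Leaving out SCI+Saline 4 made it 1.00 and called, and with the probe difference score it was -0.29 and not called. Between the saline groups Vim differed by -0.12 (standard error 0.25) and between the CDTX groups by 0.68 (0.27), which was -0.32 (0.48) with the score. Under median scaling the value between the saline groups was 0.36.

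Nestin rose with CDTX in sham mice by both of its probes. By ILMN_2703267 it read 8.80, 8.24, 8.01 and 8.18 in Sham+CDTX and 6.98, 7.20, 7.10 and 6.63 in Sham+Saline, a rise of 1.33 (standard error 0.20, limma adjusted p = 2.18e-05). The SCI+CDTX arrays read 8.15, 8.10 and 8.03 and the SCI+Saline arrays 6.84, 6.18, 7.09 and 7.00, a difference of 1.32 (0.22). By ILMN_2904590, a dim probe detected on 2 of 4 arrays in each saline group, the sham difference was 0.80 (0.20, adjusted p = 0.00234), and it was not called with the probe difference score, at 1.03.

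The difference between the CDTX effects on Nes was -0.01 (95% interval -0.62 to 0.61, adjusted p = 0.987) by ILMN_2703267 and 0.00 (-0.60 to 0.61, adjusted p = 0.996) by ILMN_2904590. Of the 14 probes, these were the 2 with the smallest difference between the effects in the 2 surgeries.

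Markers of monocytes and macrophages were higher in the same groups as vimentin and nestin, and markers of fibroblasts were so in part. All 8 monocyte and macrophage markers were kept and called higher with CDTX in both surgeries, and their summed intensity was 11798 to 17580 in SCI+CDTX, 781 to 3763 in SCI+Saline, 13926 to 16376 in Sham+CDTX and 861 to 1849 in Sham+Saline. Of 8 fibroblast markers, 7 were called higher with CDTX in sham and 6 in SCI mice. Their sums were 12771 to 16136 in SCI+CDTX, 8504 to 13637 in SCI+Saline, 21239 to 24488 in Sham+CDTX and 8167 to 16587 in Sham+Saline. The fibroblast sums of SCI+CDTX overlapped those of both saline groups. The part of these cells in the Vim, Nes and Lmna values was not tested.

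Lamin A/C was higher with CDTX and with SCI, and its probes disagreed on how the treatments combined. By ILMN_2662387, at base 1028 of variant 2, Sham+Saline read 9.32, 8.97, 8.44 and 8.49 and Sham+CDTX 10.40, 11.07, 10.96 and 10.56. SCI+Saline read 9.60, 9.82, 10.02 and 10.12, and SCI+CDTX 11.02, 11.12 and 11.02. Sham+CDTX and SCI+CDTX overlapped, and no other groups did.

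By ILMN_1255510, at base 1468 of the same record, Sham+Saline read 10.17, 10.08, 9.90 and 10.17 and Sham+CDTX 10.47, 10.65, 10.84 and 10.48. SCI+Saline read 10.39, 10.31, 11.01 and 11.04, overlapping Sham+CDTX. SCI+CDTX was alone at 11.99, 12.23 and 12.31.

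In sham mice CDTX raised all 5 Lmna probes. The 4 probes other than ILMN_1255510 rose by 1.57 to 1.99 (limma adjusted p from 3.94e-08 to 4.65e-06), and ILMN_1255510 rose by 0.53 (standard error 0.17, adjusted p = 0.0149). That last call was lost without Sham+CDTX 3, at 0.46, and over all 16 arrays, at 0.53. With the probe difference score ILMN_1255510 was at 2.62, inside the 1.96 to 2.99 of the other 4 probes. Within SCI mice CDTX muscle was higher by 0.78 to 1.18 by those 4 probes and by 1.49 by ILMN_1255510.

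The difference between the CDTX effects was accordingly of opposite sign. It was -1.15 by ILMN_2597710 (standard error 0.24, limma adjusted p = 0.00218) and -0.87 by ILMN_3121891 (0.25, adjusted p = 0.0155). By ILMN_1255510 it was 0.96 (0.25, adjusted p = 0.00906). By ILMN_2662387 it was -0.78 (adjusted p = 0.0565) and by ILMN_1254405 -0.39 (adjusted p = 0.39), neither called.

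These signs depended on the setting for ILMN_1255510 alone. It was 0.23 under median scaling and 0.60 over all 16 arrays, neither called. With the probe difference score it was -0.89 (standard error 0.33), also not called, on the side of the other 4 probes. The other 4 stayed negative under all 24 alternatives, though the ILMN_2597710 call was lost with the score, at -1.16. ILMN_2662387 was called under 6 alternatives: without SCI+Saline 1 (-0.87), without Sham+CDTX 1 (-0.90), without Sham+Saline 1 (-0.95), under median scaling (-1.44), and at the reported -0.78 with the stricter detection filter and with the trended and robust eBayes. ILMN_1254405 was called under median scaling (-1.09) alone. On the excluded array the raw intensity of ILMN_1255510 was 2343.4, against 4368.4 to 4861 on the other SCI+CDTX arrays, while that of ILMN_2662387 was 2238.8, inside the 2204.7 to 2421.6 of its group.

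SCI muscle was above sham muscle with saline by 1.03 to 1.30 by the 4 probes and by 0.60 by ILMN_1255510. With CDTX it was above by 0.15 to 0.64 by the 4 probes and by 1.57 by ILMN_1255510. Of these values, those of ILMN_1255510 and ILMN_1254405 (0.64, standard error 0.22) were past the threshold. Those of ILMN_2662387 (0.30, standard error 0.21), ILMN_2597710 (0.15, 0.18) and ILMN_3121891 (0.40, 0.18) were not. With the probe difference score 4 of the 5 values turned negative, none of them called. They were -0.24 (standard error 0.33) for ILMN_2662387, -0.38 (0.27) for ILMN_3121891, -0.095 (0.35) for ILMN_1254405 and -0.11 (0.27) for ILMN_1255510.

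**Figure D3:**
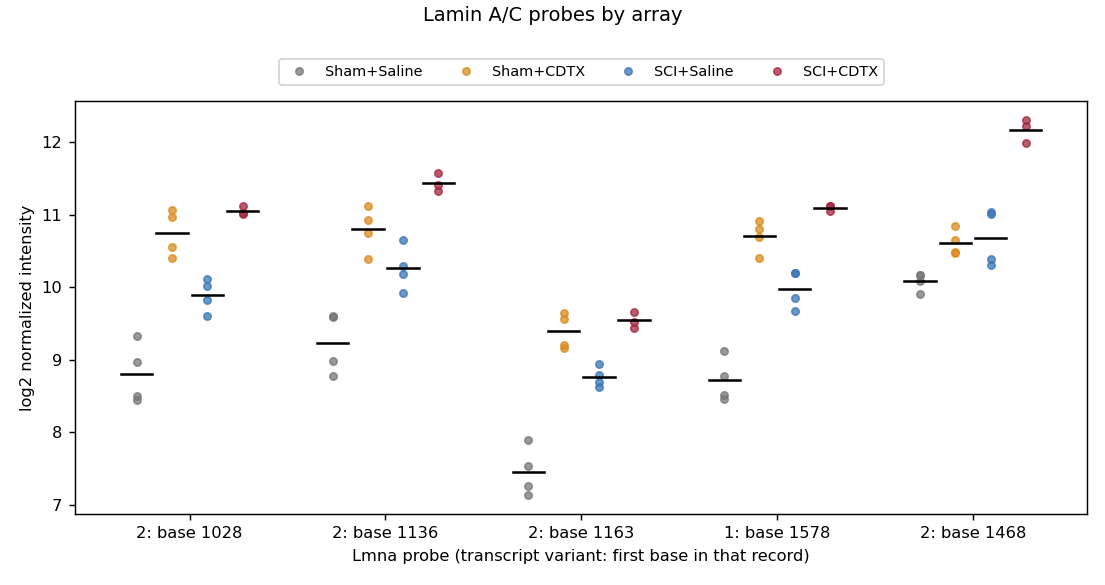
Log2 normalized intensity of the 5 Lmna probes, 1 point per array, colour for the group and a black line for the group mean. In the first 4 probes the Sham+CDTX mean lies between the means of SCI+Saline and SCI+CDTX. Among them, the arrays of Sham+CDTX (10.39 to 11.13) and SCI+Saline (9.92 to 10.66) overlap in the probe at base 1136. In the probe at base 1468, on the right, Sham+CDTX (10.47 to 10.84) overlaps SCI+Saline (10.31 to 11.04) and SCI+CDTX (11.99 to 12.31) is apart.

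Among the 10 probes of Krt8, Des, Vim, Nes and Lmna, the genes that did not choose the set, 9 rose and 0 fell with CDTX in sham mice, where 48.9% of all kept probes passed the threshold, 23.1% higher and 25.8% lower. Their median was 1.45 against -0.04 over all kept probes. Of these 10 probes 5 read Lmna and 2 read Nes, so the count and the median do not rest on independent genes. The difference between the CDTX effects was past the threshold for 4 of these 10 probes, 1 positive and 3 negative, against 23.6% of all kept probes, 12% positive and 11.6% negative. This count includes Krt8, for which the value is a description. With Krt18 and Dmn included, 10 of 14 probes passed for CDTX in sham mice (9 higher, 1 lower) and 6 of 14 for the difference (1 positive, 5 negative). With CDTX in SCI mice 12 of 14 passed, where 42.9% of all kept probes did. Of these 8 were higher and 4 lower, against 20.4% and 22.5% over all. With SCI 9 of 14 passed in saline muscle, where 29.5% of all did. Of these 7 were higher and 2 lower, against 14.8% and 14.6% over all. In CDTX muscle 7 of 14 passed, where 29.8% of all did, 5 of them higher and 2 lower, against 14.9% in each direction over all. All counts over the 14 probes include values of the genes that chose the set and support nothing. Without SCI+CDTX 4, Sham+CDTX 1 or Sham+CDTX 4 the count for SCI in CDTX muscle was 4 in each case, and with the probe difference score it was 2. That score left 1 call among the 14 for the difference between the CDTX effects, where 0.288% of all kept probes were then called. Under median scaling the calls among the 14 for the difference between CDTX effects were 0 positive and 7 negative, and those for SCI in saline muscle 8 higher and 0 lower. With each slide normalized separately, those for SCI in CDTX muscle were 8 higher and 1 lower. Median scaling moved the median over all kept probes to 0.32 for CDTX in sham mice, 0.17 for SCI in saline muscle and -0.24 for the difference between the CDTX effects, so each direction is read against that shift. Apart from the 0.288%, the shares of all kept probes called under these alternatives are not given here. The counts under them cannot be set against a background.

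**Figure D4:**
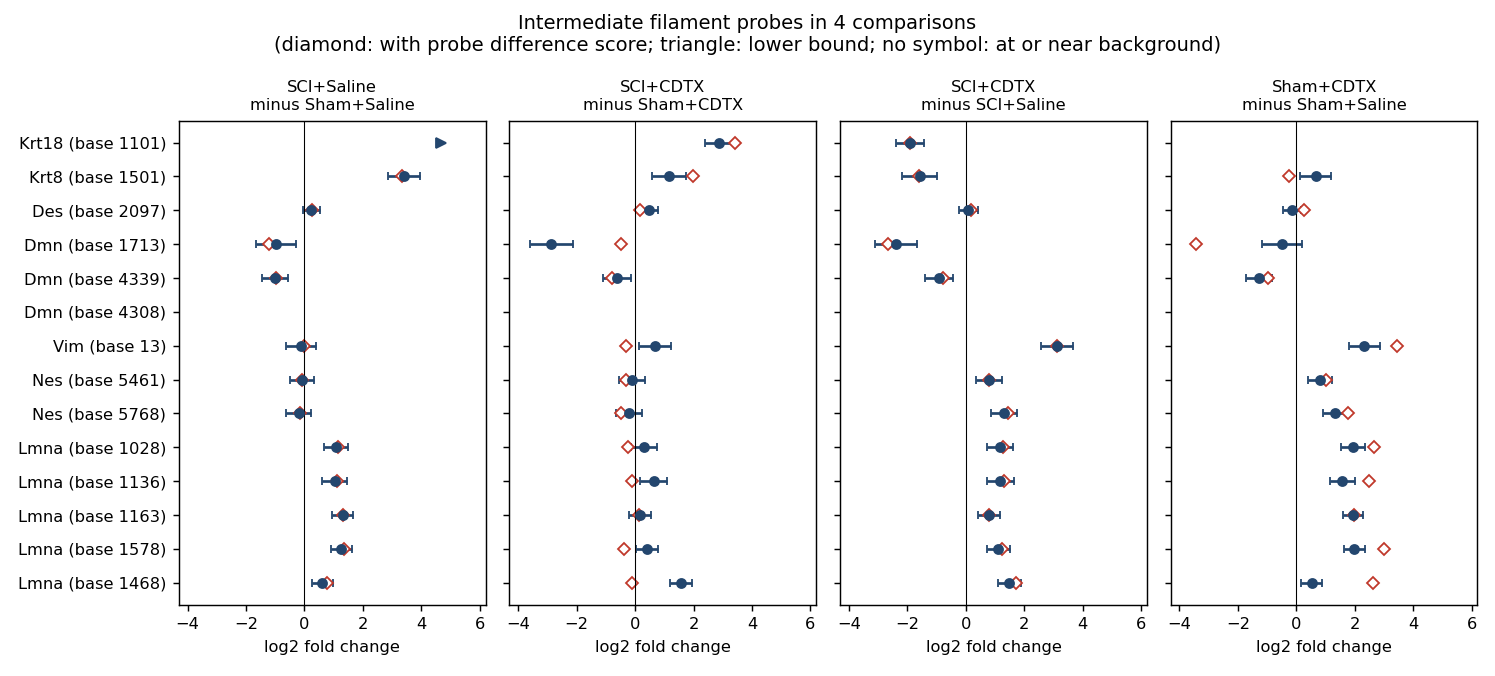
Log2 fold change of each probe in 4 comparisons, filled circles with 95% intervals from the 15-array fit and open diamonds from the 16-array fit with the probe difference score. The triangle for Krt18 is its lower bound in SCI+Saline minus Sham+Saline, and probes at or near background (Dmn by the variant 1 probe, Krt18 between the sham groups) have no symbol. The diamonds stay near the circles in the comparisons without Sham+CDTX and lie farther off for several probes in those with it, among them Dmn at base 1713 (-2.87 to -0.48 in SCI+CDTX minus Sham+CDTX) and Lmna at base 1468 (1.57 to -0.11).

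Genes that work with these filaments were read from lists of 86 genes, of which 48 were kept, 1 probe per gene. With CDTX in sham mice 10 were called higher and 21 lower (limma, adjusted p under 0.05), with a median of -0.31. Over all kept probes 23.1% were called higher and 25.8% lower. Lmnb1 and Lmnb2, the B-type lamins, rose by 1.88 and 1.05, and the protease Capn2 by 1.06. Myot, a Z-disc protein, fell by 1.81, the protease Capn1 by 1.44 and Synpo2, a Z-disc actin binder, by 1.23. Of the 16 kept linkers and anchors 2 rose and 9 fell, and of the 15 kept chaperones and turnover genes 3 rose and 9 fell.

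With CDTX in SCI mice 9 of the 48 were higher and 16 lower, against 20.4% and 22.5% of all kept probes. Lmnb1 was higher by 1.92, Capn2 by 1.42 and Plec, which encodes the linker plectin, by 1.09. Ldb3, a Z-disc protein, was at -1.57, the small heat shock protein Hspb3 at -1.50 and the ubiquitin ligase Trim63 at -1.50.

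With SCI in saline muscle 8 of the 48 were higher and 12 lower, against 14.8% and 14.6% of all kept probes. Hspb7, a small heat shock protein of muscle, was higher by 2.31, Trim63 by 1.25 and Cryab, a desmin chaperone, by 1.16. Synpo2 was at -1.60, Sun2, which anchors the nuclear envelope to the cytoskeleton, at -1.56 and Fhl1 at -1.39. With SCI in CDTX muscle 8 of the 48 were higher and 13 lower, against 14.9% of all kept probes in each direction. Hspb7 was higher by 1.92, Capn1 by 1.34 and the heat shock protein Hspb1 by 1.29, while the muscle protease Capn3 was at -1.61, Ldb3 at -1.16 and Synpo2 at -1.12.

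The difference between the CDTX effects was called positive for 6 of these 48 genes and negative for 3, against 12% and 11.6% of all kept probes. The 48 genes were thus not called more often than all kept probes. Capn1 was at 2.39, Plec at 1.80 and Fhl1 at 1.77, and Hspb8 and Ppl were at -1.01 each and Hspb3 at -0.71.

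The genes whose pattern over the 15 arrays was most like that of Krt18 were Gadd45a (r = 0.99), a growth arrest and stress gene, Srxn1 (0.98), which repairs oxidised peroxiredoxins, Cpne2 (0.97), Tekt1 (0.97) and the proteasome subunit Psmb4 (0.97). For Dmn by ILMN_2636266 they were Wdr22 (0.97), Zdhhc3 (0.97), Cpt1b (0.96), the muscle carnitine palmitoyltransferase, and the potassium channel Kcnj12 (0.95). For Vim they were Gnb1, Pgam1, Anxa5, LOC100046650 and Gpr176 (all 0.98). For Des they were Mocs1, Fam8a1, Gprc5b, Dnajc16 and Hsdl1 (0.87 to 0.89). Each is a Pearson correlation of 1 probe per gene over arrays that share the 4 groups, given as a description.

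In the authors' deposited table of the 15-array analysis, the mean intensity of Krt18 was 687.4 in SCI+Saline, 211.2 in SCI+CDTX, 9.8 in Sham+CDTX and 0.1 in Sham+Saline. For Krt8 the authors' deposited table gave 293.7, 113.4, 41 and 11.4 in that order, and for Vim 477.9, 3915.8, 2567.6 and 456.4. The order of group means in the authors' deposited table was that of the levels above for Krt18 and Krt8, and for Vim only the saline groups, which overlap, changed places.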

How the data were processed

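Total RNA was measured on 16 Illumina arrays. The deposited table gives mean bead intensity without normalization or background subtraction, with a detection p-value per probe and array, per the file headers. A further deposited table holds the authors' group means of intensity that were average-normalized and background-subtracted, per the file headers. GenomeStudio 2011.1 is named in the submitters' processing notes.

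Intensities of 15 arrays were processed with limma 3.58.1 (R 4.3.3): neqc, offset 16, quantile normalization, log2, and a detection filter (p under 0.05 on at least 3 arrays). The offset understates changes of dim probes. A model of 4 group means was fitted to 14763 probes with calls at 0.05 after Benjamini-Hochberg adjustment over all of them, and all adjusted p-values are limma's. The script was tested on simulated data. The number of arrays limits the precision.

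Members and lists were chosen with earlier results of these data known. The rule named every member probe, up to 3 called list genes at each end of each comparison, and the 5 genes most like Krt18, Dmn, Des and Vim. One of these genes and some probe sequences are not reported here. The marker lists were muscle fibre, muscle precursor, macrophage, neutrophil, fibroblast, endothelial, Schwann and epithelial genes. Alternatives were all 16 arrays, median scaling, no background correction, slides normalized separately, no or a stricter detection filter, a trended and robust eBayes, only the compared groups, a replicate block, the probe difference score as a covariate, and each array left out in turn. Replicate numbers were not treated as pairs.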

Additional observations from a re-analysis of the deposited data

Results flagged for a closer look

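The CDTX effect in SCI mice minus that in sham mice was past the threshold for Krt8 at -2.24, given as a description. It was called for Lmna at -1.15 by ILMN_2597710, 0.96 by ILMN_1255510 and -0.87 by ILMN_3121891. These Lmna probes differ in sign. With the probe difference score as a covariate the values were -1.36, -1.16, -0.89 and -1.73, of which only that of ILMN_3121891 was called.

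One array stood apart in its group for Dmn by ILMN_2636266. SCI+Saline 2 was at 8.73, below the 9.61 to 9.74 of the other 3 arrays, with a gap of 0.874 of the group's range. It was the only such array among 42 group and probe combinations, where chance gives about 1 in 20.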

How the results depend on the processing

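Values of member probes under the alternatives kept their side of the threshold, and their direction where past it, in 333 of 349 cases for CDTX in sham mice, 319 of 335 for the difference between CDTX effects, 349 of 349 for CDTX in SCI mice, 336 of 349 for SCI in saline muscle and 309 of 349 for SCI in CDTX muscle. Values not past the threshold changed sign in 7, 26, 2, 8 and 6 of these cases, in that order, and most of those in the difference between CDTX effects were Nes values near 0. With the probe difference score the call count was 1 for the difference between CDTX effects and 2 for SCI in CDTX muscle, and values past the threshold changed sign for Krt8 with CDTX in sham mice (-0.25), for the difference between CDTX effects of Dmn ILMN_1214880 (0.75) and Lmna ILMN_1255510 (-0.89), and for SCI in CDTX muscle of Lmna ILMN_1254405 (-0.095) and ILMN_1255510 (-0.11). None of these sign-changed values was called with the score. Their standard errors were 0.70, 0.72, 0.33, 0.35 and 0.27 in that order. The cause was not tested. Leaving out 1 array at a time gave 9 to 10 calls for CDTX in sham mice, 6 to 7 for the difference, 12 to 12 for CDTX in SCI mice, 8 to 9 for SCI in saline muscle and 4 to 8 for SCI in CDTX muscle. The replicate block gave 10, 6, 12, 9 and 6 calls in the same order. These counts under alternatives are given without the share of all kept probes called in each setting. Of 21 pairs of arrays with the same number, 3 correlated above 0.1 (median r = -0.02, highest 0.38). No pairing by number was evident, though low correlations between so few arrays cannot exclude it. Krt18 in Sham+Saline and Dmn ILMN_3053693 in SCI+Saline were detected on 0 of 4 arrays, where a level is only a bound, and Krt8 in Sham+Saline on 2 of 4.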

Other observations

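Markers of neutrophils, 6 of 8 kept, had summed intensities of 2984 to 5005 in SCI+CDTX, 2029 to 12767 in SCI+Saline, 628 to 925 in Sham+CDTX and 129 to 10641 in Sham+Saline. Endothelial and mural markers, 8 of 8 kept, ran from 992 to 1241 in SCI+CDTX, 861 to 912 in SCI+Saline, 923 to 993 in Sham+CDTX and 1313 to 1425 in Sham+Saline. Schwann cell and nerve markers, 5 of 8 kept, ran from 1999 to 2920, 1412 to 3342, 2064 to 5186 and 2941 to 4504 in the same groups.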
